A study of Rattus norvegicus with 13 samples.

Results

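The effect of ethanol on the liver of undernourished pregnant rats was read from 7 of the 13 arrays of a diet study: 4 arrays labelled EtOH-160 and 3 labelled TEN-160. All animals were time-mated female Sprague Dawley rats. TEN-160 was the undernourished control group: it was fed no ethanol, and its daily energy supply was 160 kcal for each kg to the power 0.75. EtOH-160 had this supply too, with 12 g of ethanol per kg per day. The groups TEN-220 (n = 3, no ethanol) and EtOH-220 (n = 3, 12 g of ethanol per kg per day) were supplied at 220 kcal and enter here as a reference. Each array held hepatic RNA on an Affymetrix chip of 8799 probe sets, of which 59 were controls, 8740 were not, and 5244 were bright enough to be tested. Whether RNA was pooled between animals is not stated in the labels, so the p-values reflect no more than the spread of these samples, which may be technical. The sources used here do not give the day of gestation.

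The liver oxidises ethanol to acetaldehyde and then to acetate, mainly through cytosolic alcohol dehydrogenase and mitochondrial aldehyde dehydrogenase, and both steps turn NAD+ into NADH. Cytochrome P450 2E1 in the endoplasmic reticulum is a further route. An undernourished liver draws on amino acids for glucose and passes their nitrogen to the urea cycle, while it lowers the synthesis of fat. Both loads meet in the hepatocyte, which also makes most plasma proteins and folds them in the endoplasmic reticulum.

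A probe set is a group of short oligonucleotides that read 1 stretch of a transcript, so a gene with several probe sets is measured several times on the same arrays. Levels are normalized signals, changes are differences of mean log2 signal (EtOH-160 minus TEN-160) each with a model-based standard error (SE), and array values are given in the order of the replicate numbers. Calls needed an adjusted p under 0.05 in limma, with Benjamini-Hochberg adjustment over all 5244. The background was a signal of 44, the 95th percentile of 19 control probe sets whose targets are absent from rat RNA. Hepatocyte markers were bright on all arrays: the summed signal of 14 of them ranged from 288178 to 309112 in TEN-160 and from 296764 to 308866 in EtOH-160.

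The TEN-160 arrays differed from the others in the spiked control BioDn-5, which reads one end of a bacterial transcript added to every sample. Its signal was 2329, 2468 and 2494 in TEN-160 and 814, 963, 623 and 1103 in EtOH-160, without overlap. The ratio of BioDn-5 to BioDn-3, the other end, was 0.426, 0.422 and 0.497 in TEN-160 and 0.137 to 0.177 in EtOH-160. The ratio of 3' to 5' signal of GAPDH, which is lower in intact RNA, ran from 1.03 to 1.24 on TEN-160 arrays and from 1.5 to 1.73 on EtOH-160 arrays, again without overlap, but 1.04 to 2.32 over the 6 arrays at 220 kcal. The actin 3'/5' ratios of both groups overlapped (1.91 to 2.96 and 1.77 to 2.31). These differences lie between the same arrays as the diets, so the array differences and ethanol cannot be told apart in this comparison.

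With ethanol at 160 kcal, 1170 of 5244 probe sets were called, or 22.3%. Of these 621 were higher in EtOH-160 (11.8% of those tested) and 549 were lower (10.5%). Both groups' arrays were fully separate for 31.1% of the probe sets, with EtOH-160 wholly above TEN-160 for 15.9% and wholly below for 15.3%. A change of at least 2-fold was called for 282 higher and 233 lower probe sets. Higher calls made up 53.1% of the calls, but 70.8% when the arrays were centred on their medians, which moved the median change of all probe sets by 0.11 on the log2 scale. The same contrast at 220 kcal called 5 probe sets, and 523 had an unadjusted p under 0.05 there, against 1863 at 160 kcal. The difference between both ethanol effects was called for 370 probe sets, and 338 of these were among the 1170.

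Probe sets of the same gene agreed in part. There were 882 genes with 2 or more tested probe sets that name only that gene, 650 with 2, 232 with 3 or more and at most 6, and in 502 of the 882 (56.9%) all probe sets had the same sign. Among the 390 genes with at least 1 called probe set it was 247 (63.3%), and among the 492 with none it was 255 (51.8%). In 58 genes 2 or more probe sets were called higher with all signs alike, and in 33 they were called lower. In 13 genes probe sets were called in opposite directions. In 273 genes only 1 probe set was called, and in 156 of these all signs were alike. For the 220 kcal contrast, over the same 882 genes, the share with all signs alike was 54%.

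Among the 650 genes with 2 probe sets, both changes had the same sign in 408 (62.8%), and their correlation across genes was 0.37, a description in which both values come from the same arrays. Agreement was higher where the dimmer probe set was at least 4 times above background (65.8%, r = 0.48) than where it was dimmer (59%, r = 0.25). It was 67.9% where both probe sets were designed on 1 sequence record and 58.3% where they came from different records. Pairs from mRNA records had r = 0.45, pairs from expressed sequence tags r = 0.32, and mixed pairs r = 0.25. The median absolute difference between both changes of a gene was 0.44 on the log2 scale, beside a median absolute change of 0.374 over all probe sets.

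**Figure D1:**
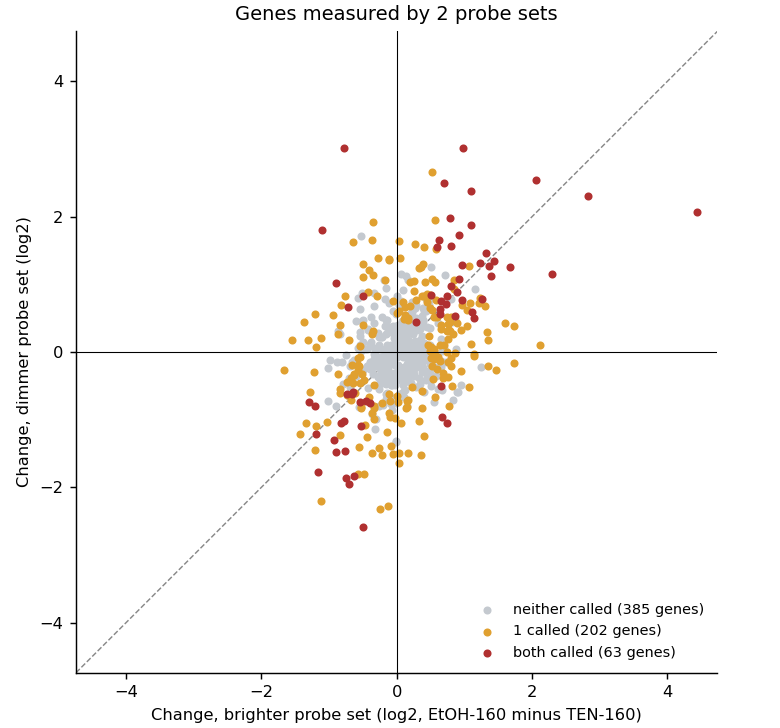
Change with ethanol at 160 kcal (log2, EtOH-160 minus TEN-160) of the brighter (horizontal axis) and the dimmer probe set (vertical axis) of 650 genes; each point is 1 gene, the colour shows how many of its probe sets were called, and the dashed line marks equal changes. Both changes had 1 sign in 408 genes; of the genes with both called, 55 were called in 1 direction and 8 in opposite directions.

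Agreement depended on which group departed from the 6 arrays at 220 kcal. A group was counted as outside where all its arrays lay above the highest or below the lowest of those 6. Of the 1170 called probe sets, TEN-160 alone was outside for 655 (56%), EtOH-160 alone for 82 (7.01%), both on opposite sides for 12, both on 1 side for 9 and neither for 412 (35.2%). Over all tested probe sets the shares were 19.5% for TEN-160 alone and 2.56% for EtOH-160 alone. In most called changes TEN-160 thus lay away from the normally fed arrays, which are those of TEN-220 and EtOH-220, and EtOH-160 did not. The rule is easier to meet for the 3 TEN-160 arrays than for the 4 EtOH-160 arrays. With each EtOH-160 array left out in turn, 898 to 997 probe sets were called. TEN-160 alone was then outside for 525 to 587 of them and EtOH-160 alone for 90 to 115.

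Where a called probe set had EtOH-160 alone outside, the gene's other probe set had the same sign in 23 of 24 genes (95.8%). Where neither group was outside it was 85 of 107 (79.4%), and where TEN-160 alone was outside it was 98 of 154 (63.6%). All genes with 2 probe sets and a called one gave 186 of 265 (70.2%), so the last share was below theirs. Over all 650 genes, called or not, it was 62.8%. A gene with both probe sets called could count in 2 of these classes, so the classes share some genes. Over pairs from different sequence records the counts were 12 of 12, 44 of 57 and 44 of 78. With each of the 7 arrays left out in turn, the shares were 87.5 to 100% for EtOH-160 alone, 77.8 to 88.1% for neither and 63.6 to 69.9% for TEN-160 alone, and 2 other scalings kept this order. Without EtOH-160 replicate 3 the first share, 87.5%, was just below the 88.1% for neither. These are counts of genes with no test, and all of them come from the same 7 arrays.

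**Figure D2:**
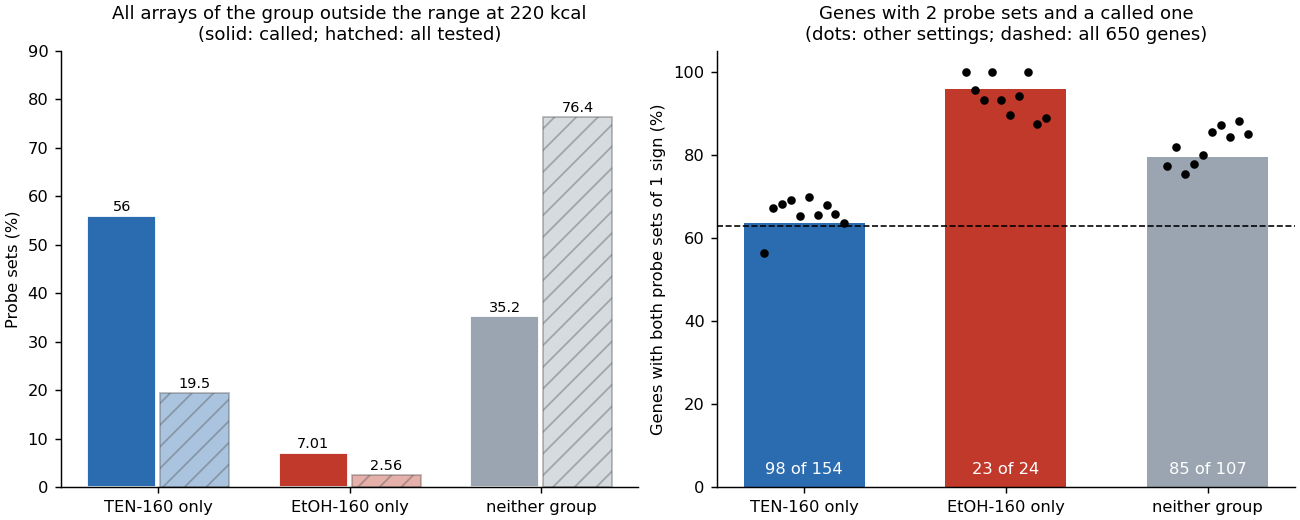
Left, percent of probe sets for which all arrays of TEN-160 only, of EtOH-160 only or of neither group lay outside the range of the 6 arrays at 220 kcal, for the 1170 called (solid) and all 5244 tested (hatched) probe sets. Right, percent of genes with 2 probe sets, at least 1 of them called in that class, whose probe sets had 1 sign. A gene can count in more than 1 class. Dots give other scalings, single arrays left out and pairs from different records. The dashed line is the 62.8% of all 650 genes, called or not. The share of the 265 genes with a called probe set, 70.2%, is not drawn.

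The 24 genes named by rule for agreement had all probe sets on 1 side of 0 and at least 2 called. The 12 higher ones were Sds, Asl, Slc37a4, Pdk2, Klf9, Fasn, Cyp2b2, Mettl7b, Tnk2, Neurl2, Cox6c and Afp. The 12 lower ones were Selenop, Cyp2c12, Ghr, Efna1, Maea, Fbxo38, Rpl26, Brcc3, Ptpn6, Lypla1, Cnbp and Scp2. In 7 of the higher and 4 of the lower genes the probe sets came from 1 sequence record, and in 5 and 7 they all came from different records.

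Sds, the serine dehydratase that turns serine into pyruvate and ammonia, rose on both probe sets. Its brighter probe set read 152, 134 and 142 in TEN-160 and 738, 4700, 6033 and 4384 in EtOH-160, a change of 4.44 (SE 0.616, adjusted p = 0.000401, 21.7-fold). Replicate 1 of EtOH-160 was far below the rest, and without it the change was 5.13. The other probe set, from a different record, read 288, 173 and 224 against 403, 1035, 1433 and 1313 (2.07, SE 0.586, adjusted p = 0.0225). That second call ended without any of 4 single arrays, at an adjusted p of up to 0.0684. All EtOH-160 arrays were above all others on both probe sets.

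Asl, the argininosuccinate lyase of the urea cycle, showed the same arrangement on 2 probe sets from different records. The brighter read 1063, 1356 and 1168 in TEN-160 and 2274, 3369, 4239 and 2906 in EtOH-160 (1.39, SE 0.192, adjusted p = 0.000401). The other rose by 1.13 (SE 0.198). Klf9, a transcription factor that responds to glucocorticoids and thyroid hormone, read 633, 615 and 556 against 1139, 1521, 1937 and 1524 (1.32, SE 0.208, adjusted p = 0.000887), with 1.47 on its other probe set. In neither gene did the groups overlap, and EtOH-160 alone stood outside the levels at 220 kcal.

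Slc37a4, which carries glucose 6-phosphate into the endoplasmic reticulum for the release of glucose, read 1173, 1026 and 890 in TEN-160 and 2796, 3304, 3850 and 3217 in EtOH-160 (1.68, SE 0.184, adjusted p = 0.000119). On this probe set the normally fed arrays lay between both groups; on the other one, with a change of 1.26, EtOH-160 alone lay outside their range. Pdk2, a kinase that inactivates pyruvate dehydrogenase, rose by 1.37 and 1.27 (SE 0.246 and 0.227), with EtOH-160 above the 220 kcal arrays on both probe sets. Cyp2b2, a P450 known for its induction by phenobarbital, read 1430, 745 and 444 against 10839, 8030, 5234 and 2087 (2.83, SE 0.55, adjusted p = 0.003), and rose by 2.30 on its other probe set. Its EtOH-160 arrays did not overlap TEN-160 but reached into the range at 220 kcal.

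Most other agreed rises had TEN-160 below the normally fed arrays on at least 1 probe set. Fasn, the fatty acid synthase, read 922, 1385 and 949 in TEN-160 and 3956, 5107, 3763 and 5091 in EtOH-160 (2.06, SE 0.285, adjusted p = 0.000401), beside levels of 4937 in TEN-220 and 4123 in EtOH-220. Mettl7b, a methyltransferase-like protein of lipid droplets, rose by 1.23 and 1.31 (SE 0.308 and 0.322), and the tyrosine kinase Tnk2 by 1.10 and 2.38 (SE 0.234 and 0.218). Afp, the fetal relative of albumin, rose by 1.09 and by 1.88; on the second TEN-160 was below background, so that the fold is at least 2.03. Some of these calls rested on single arrays. The first call of Afp ended without any of 4 arrays (adjusted p up to 0.119). That of the second Cox6c probe set, a subunit of cytochrome oxidase, also ended without any of 4 (up to 0.109). On the first one the change of 2.29 became 3.03 without TEN-160 replicate 1 and 1.23 without replicate 3. Neurl2 rose by 1.44 and by at least 2.17-fold on a probe set with TEN-160 below background, a call (change 1.34) that ended without TEN-160 replicate 1 (1.21, adjusted p = 0.0626) or EtOH-160 replicate 4 (1.14, adjusted p = 0.0516).

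Among the agreed falls, TEN-160 was mostly the group that stood apart. Selenop, the selenium carrier of plasma, read 15511, 14739 and 11933 in TEN-160 and 6686, 6972, 7905 and 7844 in EtOH-160 (−0.93, SE 0.196, adjusted p = 0.00494), and its second probe set, from another record, changed by −1.30. Levels at 220 kcal were 7318 and 8519 on the first. Cyp2c12, the female-specific steroid hydroxylase of rat liver, read 16183, 15206 and 13319 against 9548, 8414, 7844 and 9027 (−0.77, SE 0.136, adjusted p = 0.00163), with −1.01 on its other probe set. Efna1, a ligand of Eph receptors, fell by 1.19 and 1.21 (SE 0.198 and 0.297), and Brcc3, a deubiquitinating enzyme, by 1.20 and 0.80 (SE 0.235 and 0.178). The groups overlapped on none of these probe sets, and EtOH-160 was outside the 220 kcal range on none.

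The growth hormone receptor gene Ghr was lower on all 3 of its probe sets. The probe set with the largest change read 1617, 1001 and 1003 in TEN-160 and 299, 157, 234 and 251 in EtOH-160 (−2.36, SE 0.306, adjusted p = 0.000344); the others changed by −0.79 and −0.76. The size of the fall thus differed between probe sets of the gene. The call at −0.79 ended without any of 4 single arrays (adjusted p up to 0.114). Both smaller calls also ended with median-centred values, at adjusted p of 0.144 and 0.0817.

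The remaining agreed falls were mostly unequal between probe sets. Scp2, a sterol carrier, changed by −0.70 and −1.95, Lypla1, which removes palmitate from proteins, by −0.75 and −1.86, and Maea, a subunit of a ubiquitin ligase, by −1.16 and −1.78. Cnbp changed by −1.30 and −0.74, Fbxo38 by −0.89 and −1.48, Rpl26 of the ribosome by −0.82 and −1.05, and the blood cell phosphatase Ptpn6 by −0.76 and −1.46. On the last EtOH-160 was below background, and the fold is at least 2.66. In 6 of these genes a call ended without single arrays. It did so without any of 9 arrays for Scp2 (adjusted p up to 0.207), of 10 for Rpl26 (0.136), of 6 for Maea (0.0647) and of 4 for Lypla1 (0.0841). For Cnbp it was TEN-160 replicate 1 (−0.59, adjusted p = 0.0706), and for both Ptpn6 probe sets TEN-160 replicate 3 (−0.63 and −1.04, adjusted p = 0.0559 and 0.0839). With median-centred values a call of each of Rpl26, Lypla1, Cnbp and Scp2 ended too.

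**Figure D3:**
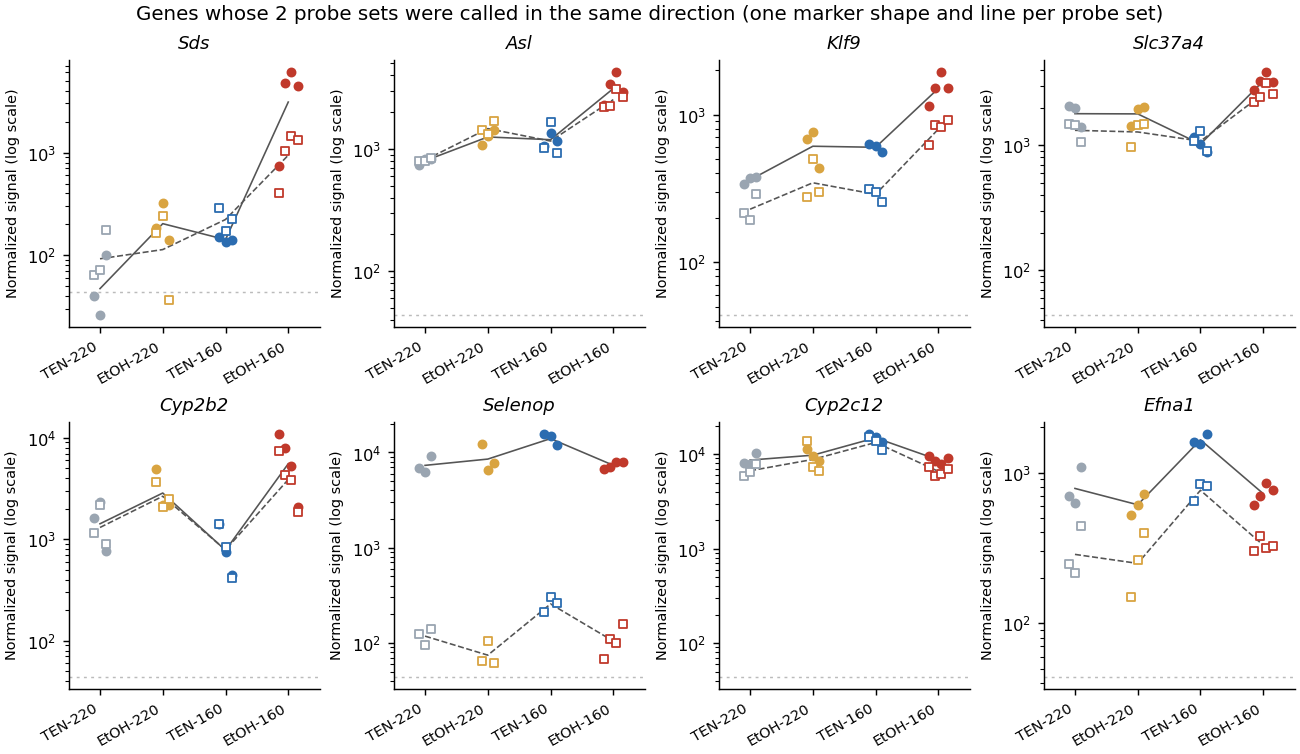
Normalized signal (log scale) of 8 agreed genes on all 13 arrays by group; each symbol is 1 array, filled circles and open squares are the brighter and the dimmer probe set, lines join group means of log2 signal, and the dotted line is the background of 44. In Sds, Asl and Klf9 the EtOH-160 arrays are above all others, and in Selenop, Cyp2c12 and Efna1 the TEN-160 means are the highest.

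There were 94 called probe sets with EtOH-160 outside the 220 kcal range and TEN-160 inside it or on the other side, 56 higher and 38 lower, for 74 genes. Their choice used these values, so they are described and not tested further. Of the genes described from here on, Ass1, Cps1, Got1, Fbp1, Ivd, Oat, Hsp90b1, Hyou1, Eif2ak3, Trib3, Bmal1, Acly, Srebf1, Insig1, Fdps, Cpt2, Fgg, A2m, C1qb, Prlr and Igf1 were chosen after their values were seen.

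In the list of the urea cycle and ammonia metabolism, 5 of 8 measured genes rose and 0 fell, each by its brightest probe set, with a median change of 0.82. These genes had 16 tested probe sets, of which 7 were called higher and 1 was called lower. Over all 3130 genes 364 rose and 284 fell (20.7% called), with a median of 0.02. The urea cycle count was the same 5 and 0 with each of the 13 arrays left out and under 3 other scalings. Ass1, which joins citrulline and aspartate, read 3231, 6798 and 6751 in TEN-160 and 15511, 18735, 22786 and 15842 in EtOH-160 (1.77, SE 0.334, adjusted p = 0.00245). Arg1, which splits arginine into urea and ornithine, read 4592, 4820 and 5205 against 7726, 8955, 10839 and 7932 (0.85, SE 0.143, adjusted p = 0.00127). The groups did not overlap in either gene, and EtOH-160 was above all other arrays. Cps1, the entry enzyme, was not called on its brighter probe set (0.09, SE 0.139) but rose by 0.74 on the other (SE 0.2, adjusted p = 0.018).

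Gls2, the liver glutaminase, read 635, 538 and 636 against 1140, 1457, 1940 and 1314 (1.25, SE 0.229, adjusted p = 0.00206), and Glud1, the glutamate dehydrogenase, rose by 0.79 on its brightest probe set but not on the 2 others (0.38 and −0.58). In the list of amino acid breakdown, 10 of 28 measured genes rose and 1 fell, with a median of 0.27. The alanine aminotransferase Gpt read 358, 376 and 224 in TEN-160 and 1220, 1436, 1705 and 1144 in EtOH-160 (2.13, SE 0.286, adjusted p = 0.000371), with the normally fed arrays between. The aspartate aminotransferase Got1 rose by 1.19 (SE 0.313, adjusted p = 0.0161), a call that ended without TEN-160 replicate 2 (1.03, adjusted p = 0.0584).

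Ivd of leucine breakdown rose by 0.44, 1.47 and 1.05, Hpd of tyrosine breakdown by 0.67, 0.56 and 2.76, and Haao of tryptophan breakdown by 1.14 and 0.50. On the Hpd probe set at 2.76 TEN-160 lay below background, so that the fold is at least 5.17. The call of Ivd at 0.44 ended without any of 5 single arrays (adjusted p up to 0.124), that of Hpd at 0.56 without any of 6 (0.0895) and that of Haao at 0.50 without TEN-160 replicate 2 (0.43, adjusted p = 0.0557). Oat, the ornithine aminotransferase, was lower: it changed by −2.32 on 1 probe set, where TEN-160 alone was high (4627, 3123 and 2660 against 821, 490, 910 and 578), and by −0.25 without a call on the other.

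Glucose production followed, with 7 of 17 measured genes higher, 1 lower and a median of 0.49. Fbp1, the fructose bisphosphatase of gluconeogenesis, read 7030, 7776 and 5175 in TEN-160 and 9604, 12218, 14380 and 11397 in EtOH-160 (0.84, SE 0.172, adjusted p = 0.00406), above every other array. The glycerol channel Aqp9 read 2512, 3035 and 1779 against 4744, 4527, 5196 and 4661 (1.00, SE 0.187, adjusted p = 0.00233). In the methionine cycle 6 of 19 genes rose and 1 fell (median 0.40). Gnmt, which uses methyl groups to make sarcosine from glycine, read 1587, 1905 and 1579 against 3204, 5318, 7885 and 3956 on its brightest probe set (1.51, SE 0.236, adjusted p = 0.000842). Its others changed by 1.04 and, not called, 0.59. The call at 1.04 ended without TEN-160 replicate 1 (0.86, adjusted p = 0.0536). Bhmt and Ahcy, which remake methionine and hydrolyse S-adenosylhomocysteine, rose by 0.94 and 1.10 (SE 0.16 and 0.201).

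**Figure D4:**
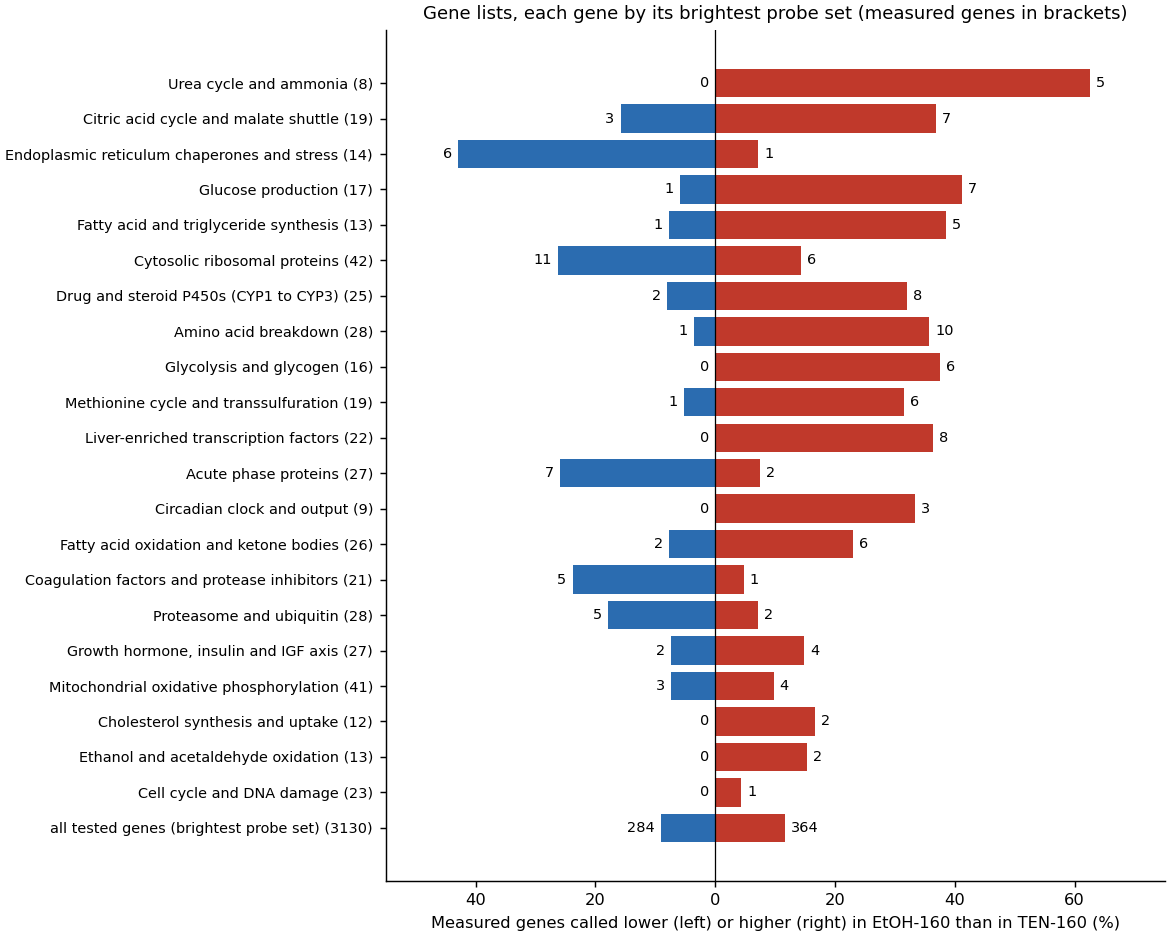
Percent of the measured genes of each list called higher (right, red) or lower (left, blue) in EtOH-160 than in TEN-160, each gene by its brightest probe set; the number beside a bar is the count of genes and the last bar is all 3130 tested genes (364 higher, 284 lower). The urea cycle list has 5 of 8 genes on the right and 0 on the left.

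Chaperones of the endoplasmic reticulum were on the lower side. Of 14 measured genes of that list 6 fell and 1 rose, with a median of −0.26; with median-centred values it was 2 lower and 2 higher, and with trimmed-mean scaling 5 lower and 0 higher. With single arrays left out, 3 to 7 were lower and 0 or 1 higher. Hspa5, the main chaperone of that compartment, read 5632, 6365 and 5161 in TEN-160 and 4117, 3574, 3553 and 3431 in EtOH-160 (−0.64, SE 0.139, adjusted p = 0.00603). Its second probe set read 3072, 2558 and 3018 against 835, 775, 919 and 709 (−1.83, SE 0.256, adjusted p = 0.000402). On both, every EtOH-160 array was below every other array; with median-centred values the first was at −0.42 (adjusted p = 0.102).

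Hsp90b1, the Hsp90 form of the same compartment, fell by 1.37 on 1 probe set, from 2249, 2957 and 2460 to 1079, 870, 967 and 1036 (SE 0.235, adjusted p = 0.00147). Its brightest probe set was not called and had the other sign (0.45, SE 0.208), and a further one had −0.73 without a call. Canx, a lectin that holds glycoproteins during folding, fell by 1.14 and 1.48 on 2 of 5 probe sets, from 4094, 3956 and 3857 to 1899, 2017, 1755 and 1579 on the first (SE 0.186, adjusted p = 0.00111), where TEN-160 alone was outside the 220 kcal range, and changed by −0.24 to 0.09 on the rest. The disulfide isomerases Pdia4 (−1.25, SE 0.278) and Pdia3 (−0.53 and −1.10, SE 0.157 and 0.222) fell, with TEN-160 and EtOH-160 not overlapping. The chaperone Hyou1 (−0.57), the stress sensor kinase Eif2ak3 (−0.67), the pseudokinase Trib3 (1.60, or at least 3-fold, with TEN-160 below background) and the brighter Pdia3 probe set were called near the threshold: the calls ended without any of 10, 6, 8 and 6 single arrays, at adjusted p of up to 0.168, 0.138, 0.167 and 0.0804. The dimmer probe sets of Hyou1 (−0.10) and Trib3 (0.43) were not called.

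Some genes for traffic from the endoplasmic reticulum to the Golgi were among those with EtOH-160 below all 220 kcal arrays. They are named here after their values were seen. No list of such genes was counted, and some others of this traffic had probe sets called higher, so no direction of the traffic as a whole can be read. The vesicle tether Uso1 read 951, 802 and 835 in TEN-160 and 448, 424, 481 and 372 in EtOH-160, so that it fell by 1.00 (SE 0.162, adjusted p = 0.00104). Scfd1, which helps vesicles fuse, changed by −0.98 (SE 0.202), and the small GTPase Arf4 by −1.08 (SE 0.118, adjusted p = 0.000119), from 2453, 2523 and 2796 to 1317, 1178, 1233 and 1163. In Arf4 all TEN-160 arrays were also above all 220 kcal arrays. The groups did not overlap in any of these genes. Bet1, a membrane fusion protein of the same step, fell by 2.17 (SE 0.35), but there TEN-160 alone was high.

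Promoters of the chaperone and stress genes above with a probe set called lower were searched, because genes of this compartment share a known regulatory element. The ER stress element is a pair of boxes, CCAAT and CCACG, with 9 bases between, through which unfolded proteins raise chaperone transcription. In RefSeq promoters of build GRCr8, from 250 bases before to 50 after the start, it was searched on both strands with no mismatch. It occurred in 22 of 33469 promoters (0.0657%) and in 3 of 7 entries for Hspa5, Hsp90b1, Pdia4, Canx, Hyou1 and Eif2ak3. Pdia3 had no entry under its symbol. The element is known from chaperone genes of this compartment, and genes of the list that did not fall were not counted. Both shares are thus no test of a link between the element and the falls. Capitals mark the boxes of the element. Hspa5 has it 43 bases before the start, Canx 230 bases before, and Hsp90b1 has it 176 bases before on the strand shown and 72 bases before on the other strand. The 3 windows are Hspa5 at chr3:38452766-38453065 (plus strand), Hsp90b1 at chr7:23012244-23012543 (minus strand) and Canx at chr10:35157808-35158107 (minus strand), each 5′ to 3′ along the gene.
Hspa5: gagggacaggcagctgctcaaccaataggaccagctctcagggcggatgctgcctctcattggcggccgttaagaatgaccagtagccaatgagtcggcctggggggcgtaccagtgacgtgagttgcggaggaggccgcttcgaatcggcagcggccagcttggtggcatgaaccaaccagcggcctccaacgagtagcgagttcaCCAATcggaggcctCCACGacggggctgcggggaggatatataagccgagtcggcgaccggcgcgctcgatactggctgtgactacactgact
Hsp90b1: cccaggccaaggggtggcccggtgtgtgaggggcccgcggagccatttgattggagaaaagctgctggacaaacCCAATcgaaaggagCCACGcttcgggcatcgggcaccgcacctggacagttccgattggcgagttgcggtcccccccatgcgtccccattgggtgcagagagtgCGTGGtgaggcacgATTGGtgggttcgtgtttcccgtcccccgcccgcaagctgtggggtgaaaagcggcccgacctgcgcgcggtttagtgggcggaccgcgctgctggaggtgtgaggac
Canx: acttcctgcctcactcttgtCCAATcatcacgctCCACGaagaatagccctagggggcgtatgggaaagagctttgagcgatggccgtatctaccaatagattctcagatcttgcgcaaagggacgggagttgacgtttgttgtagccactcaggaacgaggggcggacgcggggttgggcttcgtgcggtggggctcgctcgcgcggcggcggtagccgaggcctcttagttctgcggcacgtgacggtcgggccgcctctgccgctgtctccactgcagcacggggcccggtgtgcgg
A match is a description of these letters, and the remaining entries held none in this window.

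Clock genes and their outputs moved with ethanol in both directions. In that list 3 of 9 measured genes rose and 0 fell by their brightest probe sets, with a median of 0.53. Nr1d1, a repressor of the clock activator Bmal1, read 279, 302 and 301 in TEN-160 and 350, 445, 951 and 760 in EtOH-160 (0.98, SE 0.297, adjusted p = 0.0306), beside levels of 187 and 190 at 220 kcal. This call ended without any of 5 single arrays (adjusted p up to 0.0813). Its other probe set changed by 3.01 (SE 0.574), and by 3.64 without TEN-160 replicate 2. Bmal1 read 426, 197 and 268 against 120, 59.4, 33.2 and 60.9 (−2.20, SE 0.392, adjusted p = 0.00179) on 1 probe set, and was not called on the brighter one (−1.12, adjusted p = 0.265). Dbp, an output gene of the clock, read 43.1, 52.2 and 18.6 against 41.2, 750, 1141 and 948 (3.62, SE 0.897, adjusted p = 0.0118). TEN-160 was below background there, so that the fold is at least 9.71. The groups overlapped, since EtOH-160 replicate 1 was at the TEN-160 level, and without it the change was 4.75.

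Enzymes that oxidise ethanol changed little or unevenly. Of 13 measured genes of ethanol and acetaldehyde oxidation 2 rose and 0 fell. Cyp2e1, the ethanol-inducible P450, read 17999, 21620 and 12875 in TEN-160 and 25430, 21991, 23296 and 23296 in EtOH-160 (0.46, SE 0.149, adjusted p = 0.0418). Its 2 other probe sets changed by 0.67 (SE 0.173, adjusted p = 0.0148) and, not called, 0.14. The call at 0.46 ended without any of 10 single arrays, with a change of 0.25 and an adjusted p of 0.191 without TEN-160 replicate 3. The call at 0.67 ended without TEN-160 replicate 1 (0.59, adjusted p = 0.0594). Both ended with trimmed-mean scaling (adjusted p = 0.325 and 0.138), and the third was then −0.12.

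Adh1c, the main alcohol dehydrogenase, read 11029, 12985 and 11612 in TEN-160 and 13071, 14532, 15842 and 12218 in EtOH-160 on its brighter probe set, not called (0.23, SE 0.123, adjusted p = 0.208), and TEN-160 was below all normally fed arrays there. On the other it changed by −0.52 (SE 0.163, adjusted p = 0.0342), a call that ended without any of 5 single arrays (up to 0.12). The mitochondrial Aldh2 read 3081, 3166 and 3171 against 4102, 4729, 4210 and 4469 (0.48, SE 0.209, adjusted p = 0.118); the groups did not overlap, but the change did not pass. Cat, the peroxisomal catalase, was not called on either probe set (−0.98 and −0.11), and TEN-160 replicate 3 read 2583 where the other two read 9835 and 9513. Aldh1a1, a cytosolic aldehyde dehydrogenase, read 755, 975 and 894 against 1235, 2615, 2274 and 1555 (1.08, SE 0.243, adjusted p = 0.00727).

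Of 13 measured genes for making fatty acids and triglycerides 5 rose and 1 fell, with a median of 0.58. The desaturase Scd read 5687, 4955 and 4811 in TEN-160 and 10660, 18631, 10791 and 13567 in EtOH-160 (1.35, SE 0.223, adjusted p = 0.0012), beside 15072 in TEN-220 and 10514 in EtOH-220. A second probe set of Scd was not called (−0.21). Acly, which makes cytosolic acetyl-CoA, rose by 1.29 and 0.94 and was not called at 0.29 on a further one. The call at 0.94 ended without any of 5 single arrays (adjusted p up to 0.122). Srebf1, the transcription factor of this pathway, rose by 1.23 (SE 0.305), a call that ended without TEN-160 replicate 3 (0.99, adjusted p = 0.0559), and the citrate carrier Slc25a1 rose by 1.25 (SE 0.254). The elongase Elovl5 went the other way, from 10403, 10721 and 9333 to 6589, 6259, 6282 and 6195 (−0.68, SE 0.143, adjusted p = 0.00494), below all other arrays.

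Cholesterol synthesis and fatty acid oxidation gave mixed results. Of 12 measured cholesterol genes 2 rose, Mvd (0.90) and Sqle (0.86), and both calls ended without single arrays, 5 and 4 of them, at adjusted p of up to 0.165 and 0.0881. Fdps, the farnesyl diphosphate synthase, changed by 0.28 without a call and by −0.77 and −1.81 with one, and Insig1, which holds back this pathway, by −0.12 without a call and by 1.36 with one. Of 26 measured genes of fatty acid oxidation 6 rose and 2 fell, with a median of 0.39. Cyp4a1, an omega-hydroxylase and target of PPAR-alpha, read 3431, 3777 and 1899 in TEN-160 and 5598, 7052, 7562 and 5919 in EtOH-160 (1.16, SE 0.226, adjusted p = 0.0031), with 1.19 and, not called, 0.68 on its other probe sets. Cpt1a, the gate for fatty acids into mitochondria, read 2108, 2967 and 2766 against 794, 865, 2069 and 795 (−1.33, SE 0.295, adjusted p = 0.00668), while Cpt2, which follows it, rose by 1.14 (SE 0.269). Eci1 rose by 1.22 and 1.08 and was not called at −0.18. The call at 1.08 ended without TEN-160 replicate 1 (0.75, adjusted p = 0.0952) and without EtOH-160 replicate 2 (0.96, adjusted p = 0.0504).

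In the list of P450s for drugs and steroids 8 of 25 measured genes rose and 2 fell, with a median of 0.11. Besides Cyp2b2 and Cyp2c12, Cyp2a1, a steroid hydroxylase, read 9472, 11553 and 7932 in TEN-160 and 17627, 16549, 20774 and 20026 in EtOH-160 (0.97, SE 0.162, adjusted p = 0.00127). Cyp3a23-3a1, inducible by glucocorticoids and pregnane compounds, read 3501, 2274 and 3436 against 11612, 12985, 12985 and 7104 (1.85, SE 0.31, adjusted p = 0.00127). Its other probe sets changed by 0.91, and by 1.24 and 0.66 without a call; the call at 0.91 ended without TEN-160 replicate 2 (0.75, adjusted p = 0.0637). Cyp2d2 rose by 0.62 (SE 0.0921). P450s of 1 subfamily are close in sequence, so probe sets for them may share signal.

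Transcription factors enriched in liver were higher in 8 of 22 measured genes and lower in 0, with a median of 0.51. Cebpa read 398, 372 and 405 in TEN-160 and 733, 641, 702 and 729 in EtOH-160 (0.84, SE 0.139, adjusted p = 0.00118), and was not called on a second probe set (1.06, or at least 1.33-fold, with TEN-160 below background). Cebpb read 872, 786 and 780 against 1145, 1271, 1263 and 1317 (0.62, SE 0.137, adjusted p = 0.00662), with 1.66 on its other probe set. For both factors TEN-160 was below all 220 kcal arrays on the brighter probe set, and EtOH-160 was not outside their range.

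Acute phase proteins, which the liver secretes in inflammation, were higher for 2 and lower for 7 of 27 measured genes (median −0.19). Lcn2, an iron-binding protein of inflammation, read 1114, 553 and 2493 in TEN-160 and 169, 189, 94.3 and 263 in EtOH-160 (−2.78, SE 0.63, adjusted p = 0.0074), and the 220 kcal arrays ranged from 135 to 2546. The fibrinogen chain Fga fell on all 3 probe sets, by 0.61, 0.53 and 1.15; the calls at 0.61 and 1.15 ended without TEN-160 replicate 3 (−0.53 and −0.77, adjusted p = 0.0594 and 0.0519). Fgg, another chain, changed by −0.37 without a call and by −1.50 with one (SE 0.261). A2m was called on 1 of 4 probe sets (−1.09), and that call ended without any of 5 single arrays (up to 0.152). The neutrophil markers, a list that Lcn2 is not part of, had sums from 99.6 to 963 in TEN-160 and from 60.7 to 170 in EtOH-160; of 4 on the array, Cxcr2 and Mmp8 were below background in both groups, and their part in these results was not tested.

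The summed signal of 11 Kupffer cell and macrophage markers ranged from 11966 to 13731 in TEN-160 and from 8276 to 10329 in EtOH-160, without overlap, beside 11000 to 12684 in TEN-220 and, in EtOH-220, 9001 to 14158; 1 of 10 measured genes rose and 3 fell. Cd14, the lipopolysaccharide co-receptor, rose on both probe sets, from 442, 362 and 404 to 1239, 1102, 1498 and 974 on one (1.57, SE 0.237, adjusted p = 0.00072) and by 0.81 on the other. RT1-Ba, an MHC class II chain, fell by 1.41 on its brightest probe set, from 2076, 1517 and 1153 to 645, 610, 410 and 684 (SE 0.279, adjusted p = 0.0033), and was not called on 2 others (0.28 and 0.15). C1qb of complement changed by −0.80 with a call and by −0.33 without one. Of 8 measured stellate cell and fibroblast markers 0 rose and 3 fell; their sum, over 11 on the array, was 2747 to 5360 against 1837 to 2691, beside 2505 to 2562 in TEN-220 and, in EtOH-220, 1784 to 2278, with Des and Lum below background in both groups. Col1a1, a collagen chain, read 351, 248 and 2144 against 76.3 to 250 on its called probe set (−2.29, SE 0.684, adjusted p = 0.0288), and −0.14 to −0.49 on its uncalled ones. The call ended without any of 4 single arrays (adjusted p up to 0.129), with −1.34 without TEN-160 replicate 3 and −2.90 without replicate 2. Markers of other tissues (pancreas, muscle, fat and kidney; 15 on the array, 7 of them below background in both groups) summed to 2258 to 2721 against 1352 to 1771, without overlap, beside 1948 to 2251 in TEN-220 and, in EtOH-220, 1441 to 3860. Of 5 tested 0 rose and 1 fell. The part of these markers in the other results was not tested. The amylase gene Amy2a3, a pancreas marker here, read 1813, 1418 and 1334 against 891, 733, 682 and 832 (−0.95, SE 0.16, adjusted p = 0.00131), with TEN-160 above all 220 kcal arrays. In bulk liver, fewer cells of a type and less RNA per cell cannot be told apart.

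The growth hormone, insulin and IGF list had 4 higher and 2 lower of 27 measured genes (median 0.05). Prlr, the prolactin receptor, was lower on 2 of 5 probe sets, at −1.47 (SE 0.27, adjusted p = 0.0021) and −1.13, and not called on the rest (−0.58, −0.51 and 0.09). The call at −1.13 ended without any of 4 single arrays (up to 0.0885). Igfbp3, a carrier of IGF, read 164, 176 and 191 in TEN-160 and 584, 689, 635 and 474 in EtOH-160 (1.74, SE 0.175, adjusted p = 6.3e-05), but −0.16 without a call on its other probe set. Igf1 was near 0 on its brightest probe set (0.05, SE 0.197) and lower on 1 of 5 (−1.26), a call that ended without TEN-160 replicate 1 (−0.98, adjusted p = 0.0524).

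The lists of ribosomal, proteasome and oxidative phosphorylation genes showed no common direction. Of 42 measured cytosolic ribosomal proteins 6 rose and 11 fell, which became 10 and 4 with median-centred values; of 28 proteasome and ubiquitin genes 2 rose and 5 fell, which became 3 and 2. In oxidative phosphorylation 4 of 41 rose and 3 fell. The citric acid cycle and malate shuttle list lay more on the higher side: 7 of 19 rose and 3 fell, with a median of 0.38. With each gene by the mean over its probe sets that median was 0.24. Of 23 cell cycle genes 1 rose and 0 fell, beside the 20.7% called over all genes.

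The 13 genes with opposite calls show what a single probe set can hide. Of their 30 called probe sets TEN-160 was outside the 220 kcal range for 26, and EtOH-160 for 0. Among all 1170 called probe sets TEN-160 alone was outside for 56% and EtOH-160 alone for 7.01%. Idh1, the cytosolic isocitrate dehydrogenase, read 7815, 7562 and 8310 in TEN-160 and 4396, 4711, 4542 and 4650 in EtOH-160 on 1 probe set (−0.79, SE 0.109, adjusted p = 0.000401). On the other it read 17, 34.3 and 18.9 against 96.1, 317, 171 and 203 (3.02, SE 0.389, adjusted p = 0.000344, at least 4.1-fold, since TEN-160 was below background). The TEN-160 arrays were thus the highest of all on one and the lowest on the other.

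The translation factor Eef1a1 read 11704, 11612 and 11459 against 5465, 4968, 5645 and 5486 (−1.11, SE 0.145), and 175, 131 and 407 against 835, 638, 877 and 628 on its second probe set (1.81, SE 0.398). The ribosomal protein gene Rpl21 changed by −0.71 and −1.08 on 2 probe sets and by 1.23 and 2.48 on 2 others, all called; the last was 1.81 without TEN-160 replicate 2. Both genes belong to families with many near-identical copies, so signals of copies cannot be separated. Cp, the copper carrier ceruloplasmin, changed by −0.61 and −1.42 on 2 probe sets and by 0.83 on another. The other named genes with opposite calls were Fdx1 (−0.72 and 0.66), Cd47 (0.67 and −0.96), Cpsf7 (0.74 and −1.05), Alcam (−0.68 and, with TEN-160 below background, a rise of at least 3.24-fold), Anp32a (−0.90 and 1.02) and Errfi1 (0.77, and a fall by 1.00). In each of these 6 a call ended without single arrays. It was without any of 4 for Fdx1 (adjusted p up to 0.0718), of 4 for the fall of Cd47 (0.138) and of 6 for the rise of Errfi1 (0.154). It was TEN-160 replicate 3 for Cpsf7 (0.0521) and for the rise of Cd47 (0.0606), replicate 1 for Alcam (0.0693), and replicate 2 or 3 for Anp32a (up to 0.0577).

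**Figure D5:**
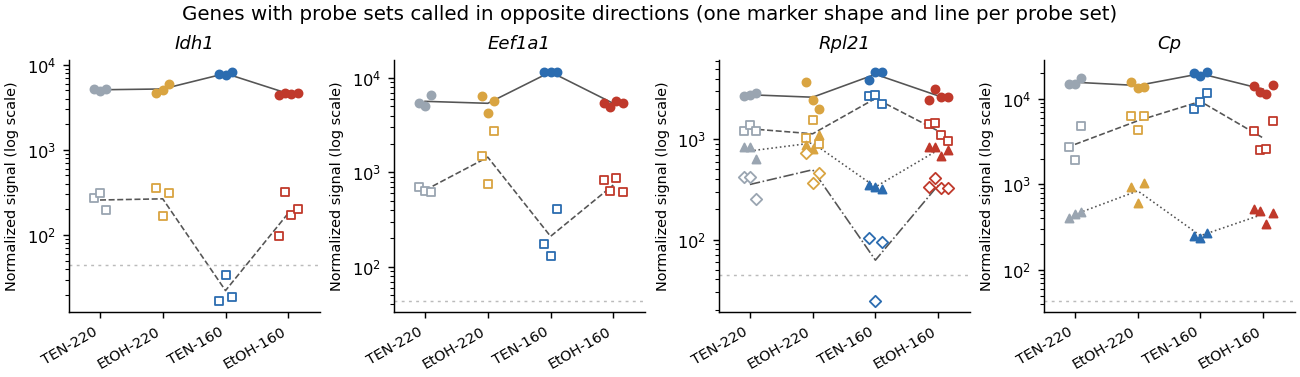
Normalized signal (log scale) of 4 genes with opposite calls on all 13 arrays by group; each symbol is 1 array, each marker shape and line style 1 probe set, lines join group means of log2 signal, and the dotted line is the background of 44. TEN-160 is the high group on the upper probe sets and the low group on the lower ones.

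For 2248 genes only 1 probe set was tested, so the agreement cannot be read. Of the 16 named by rule, TEN-160 was outside the 220 kcal range in 14, and neither group was in 2. EtOH-160 was outside in 2 of those 14, and in none was it outside alone. The 8 higher ones with the largest changes were Gpt, the deacetylase Sirt2 (2.67), the monoglyceride lipase Mgll (2.50), the ubiquitin-conjugating enzyme Ube2g2 (2.17), Rpl17 (2.04), the kinase Bmp2k (1.98), Dcakd (1.86) and the actin-binding Flnc (1.86). Sirt2 read 114, 122 and 73.2 in TEN-160 and 615, 410, 686 and 981 in EtOH-160, beside 678 and 632 at 220 kcal. The lower ones besides Lcn2 were the carboxylesterase Ces1d (−2.42), Evi5 (−2.24), the RNA-binding Ptbp3 (−2.21), Bet1, the mannose 6-phosphate receptor Igf2r (−2.11), the translation factor Eif3m (−1.91) and Ncbp2 (−1.89). Ces1d read 3506, 3969 and 3142 against 540, 892, 676 and 581, beside 832 and 657 at 220 kcal. The rule took only genes whose groups did not overlap, so the lack of overlap in all 16 is no result. In Igf2r, EtOH-160 replicate 3 read 120 where the rest read 36.1 to 38.5.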

How the data were processed

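Liver RNA of 13 samples was hybridised to one-colour Affymetrix rat arrays. The authors deposited intensity values on a linear scale, MAS5 signals per the submitters' processing notes, with no version stated. From the values, 12 arrays shared a trimmed mean of 501, and TEN-220 replicate 1 had 133. Here all arrays were quantile normalized, floored at the 10th percentile (9.238) and put on the log2 scale. Control probe sets and the lowest 40% by mean were left out, which left 5244. Group means of all 4 groups were fitted in limma 3.58.1 under R 4.3.3, with moderated variances that follow the signal, two-sided tests and Benjamini-Hochberg adjustment. The median SE of a change was 0.238, and precision is limited by how few arrays there were. The steps were tested on simulated data. Of the tested probe sets 4309 name 1 gene (3130 genes), 245 several and 690 none in the platform annotation; 4297 matched a current gene by identifier.

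The text names genes with all probe sets of 1 sign and 2 called (12 higher and 12 lower by the smaller change), genes with 1 probe set (8 and 8), genes with opposite calls (10), up to 4 called members per list, and Adh1c, Cyp2e1, Cat and Aldh2. Genes with 1 probe set had to be called, with groups not overlapping and both group means above background. Exceptions are stated where they occur. Members and lists were chosen with earlier results of these data known. The labels do not say whether replicate numbers pair the samples, and the main fit did not pair them. Deviations of same-numbered arrays correlated at 0.0589, −0.0103 and 0.0339, which shows no shared signal but cannot exclude a pairing. Alternatives were other scalings, filters, floors, fits and each array left out.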

Additional observations from a re-analysis of the deposited data

Results flagged for a closer look

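In some probe sets 1 of the 4 EtOH-160 arrays lay far from the rest, by the gap to its nearest neighbour as a share of the group's range. The low array was replicate 1 for Sds (signal 738, share 0.848) and Dbp (41.2, share 0.874), and replicate 4 for Cox6c (403, share 0.850) and Cat (2892, share 0.955). The high array was replicate 3 for Cpt1a (2069, share 0.911), Igf2r (120, share 0.947) and Cyp2d2 (24219, share 0.837). The search covered the 170 called probe sets of genes named here and the uncalled ones of Adh1c, Cyp2e1, Cat and Aldh2. Chance gives such a gap in about 1 in 20 groups, so several are expected among so many probe sets.

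The ethanol effect at 160 kcal differed from that at 220 kcal for probe sets of named genes, by the interaction test in limma with Benjamini-Hochberg adjustment over all 5244 probe sets (adjusted p 0.00206 to 0.0479), as for 370 of all 5244. All such probe sets of these genes are given, as the change at 160 kcal minus the change at 220 kcal on the log2 scale. They rest on the same arrays as the changes at 160 kcal. Among genes of lipid, glucose and amino acid metabolism the difference was above 0 for Acly (1.87), Fasn (2.32 and 3.42), Gls2 (1.31), Gnmt (1.37), Gpt (1.58), Haao (0.86), Hpd (0.83 and 2.76), Insig1 (1.60), Ivd (1.75 and 1.30), Mgll (2.42), Pdk2 (2.01 and 1.45), Scd (1.87) and Slc37a4 (1.68 and 1.30). Among other genes it was above 0 for Afp (2.34), Anp32a (1.03), Bmp2k (2.44), Cebpa (0.87), Cebpb (1.37 and 2.65), Cyp2d2 (0.61), Flnc (1.42), Idh1 (2.97), Igfbp3 (1.80), Neurl2 (1.65), Rpl17 (1.53), Rpl21 (0.96), Sirt2 (2.77), Tnk2 (1.22 and 2.25) and Ube2g2 (2.70). It was below 0 for Arf4 (−0.86), Bet1 (−2.52), Bmal1 (−2.11), Canx (−1.28 and −1.80), Ces1d (−2.08), Cnbp (−1.49), Cp (−2.33), Cyp2c12 (−0.95 and −1.41), Eef1a1 (−1.04), Eif3m (−1.86), Evi5 (−2.25), Fbxo38 (−1.48), Fdps (−1.50), Fdx1 (−0.98), Fgg (−1.47), Ghr (−2.71), Hsp90b1 (−1.38), Hspa5 (−1.74), Idh1 (−0.82), Lypla1 (−1.87), Ncbp2 (−1.84), Oat (−2.13), Prlr (−1.45), Ptbp3 (−2.09), RT1-Ba (−1.77), Rpl26 (−0.83), Scp2 (−2.09) and Selenop (−1.15). Idh1 thus had probe sets on both sides, and for Anp32a, Eef1a1, Fdx1, Cp and Rpl21, which had opposite calls at 160 kcal, only probe sets of 1 direction passed.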

How the results depend on the processing

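The 1170 calls became 1164 with trimmed-mean scaling, 1200 with median-centred values, 942 with only the 7 arrays at 160 kcal in the fit, and 881 to 1323 with each of the 13 arrays left out in turn (473 to 701 higher, 393 to 622 lower). Median-centring left 350 lower calls. The values as deposited for all 13 arrays gave 107 calls, 53 higher and 54 lower; TEN-220 replicate 1 is unscaled there, and the deposited values of only the 7 arrays at 160 kcal gave 981. An adjusted p under 0.01 left 514, 269 higher and 245 lower. The share of genes with all probe sets of 1 sign was 50.9% with no filter on dim probe sets, 60.5% with a filter of 60%, and 55.8 to 58.5% with single arrays left out. The fit with the replicate block gave 893 calls, 846 of them among the 1170. What samples of the same number share is not stated in the labels. Of 170 called probe sets of genes named here, 126 were called with every single array left out, and 44 were lost at least once. The calls lost were 126 with the deposited values of 13 arrays, 21 with the replicate block, 18 with median-centred values, 9 with trimmed-mean scaling and 22 with no filter. The uncalled Cat change of −0.11 was 0.10 with median-centred values, and from −0.41 to 0.06 with single arrays left out, being 0.01 without TEN-160 replicate 1 and 0.06 without replicate 2. The uncalled Cyp2e1 change of 0.14 was −0.12 with trimmed-mean scaling and with the deposited values of 13 or of 7 arrays. The cause was not tested. The checks of agreement by which group departed were chosen after seeing the data.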
